A study of Mus musculus with 4 samples.

Results

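The late cornified envelope (Lce) and small proline-rich (Sprr) genes of mouse back skin were followed together with loricrin (Lor) and involucrin (Ivl). Every row of the deposited table whose symbol begins with Lce or Sprr followed by a digit was taken, plus Lor and Ivl, which gave 37 of the 17721 genes. These were 14 Lce1 genes, 6 Lce3 genes, Lce6a, 2 Sprr1 genes, 11 Sprr2 genes, Sprr4, Lor and Ivl. All 37 lay on chromosome 3. Of the Sprr2 genes, Sprr2g and Sprr2j-ps are annotated as transcribed pseudogenes.

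Back skin treated with dispase, which frees the epidermis, was sequenced from C57BL/6 wild type and LDB2-/- mice aged 63 days, with 2 libraries per genotype. LDB2 links LIM domain transcription factors to their partners, and LDB2-/- mice lack both copies of its gene. The labels name no other allele or agent, and do not say whether the 2 libraries of a genotype came from separate or pooled animals, so the p-values below measure the spread between these libraries. Total counts ran from 54095522 to 68436842 per library. Ldb2 counts were 0 and 8 in the wild type libraries and 0 in each LDB2-/- library, too few to check the genotypes by the deleted gene.

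The cornified envelope is a shell of protein that forms under the plasma membrane of a keratinocyte as the cell dies to become part of the stratum corneum. Involucrin lines the membrane early as a scaffold, loricrin becomes the bulk of the shell, and the small proline-rich proteins act as crosslinked bridges between them. Transglutaminases join these proteins, and the late cornified envelope proteins are added toward the end. In skin, Lor and the Lce1 genes are typical of undisturbed interfollicular epidermis, whereas Sprr and Lce3 genes are known to be raised in wounded or inflamed epidermis.

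Promoters are shown for the most abundant Lce1, Lce3, Sprr1 and Sprr2 genes and for the Sprr2 and Lce3 genes of largest change. That of Lor was added later. Each sequence is the 200 bases before the RefSeq gene start (GRCm38.p6, the mm10 assembly), 5′ to 3′ on the strand of the gene. Capitals mark the letters TGANTCA (bound by AP-1 factors), TATAAA (the TATA box), ATAAAA (which overlaps the TATA box where both occur) and CCACCC (bound by Kruppel-like factors) on either strand.
Lor, chr3:92083143-92083342, minus strand: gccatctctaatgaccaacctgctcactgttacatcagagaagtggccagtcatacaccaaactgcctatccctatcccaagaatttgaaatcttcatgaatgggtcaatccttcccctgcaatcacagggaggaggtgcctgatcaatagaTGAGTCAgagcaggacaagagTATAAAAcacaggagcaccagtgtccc
Sprr1a, chr3:92485882-92486081, minus strand: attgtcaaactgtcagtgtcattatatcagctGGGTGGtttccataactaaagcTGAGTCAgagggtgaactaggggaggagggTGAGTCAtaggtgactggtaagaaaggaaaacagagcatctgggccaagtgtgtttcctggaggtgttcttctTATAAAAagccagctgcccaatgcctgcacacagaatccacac
Sprr2h, chr3:92385485-92385684, plus strand: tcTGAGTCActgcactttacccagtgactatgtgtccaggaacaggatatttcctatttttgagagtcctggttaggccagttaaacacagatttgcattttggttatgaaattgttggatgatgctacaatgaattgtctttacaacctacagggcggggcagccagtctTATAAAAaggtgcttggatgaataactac
Sprr2a1, chr3:92215635-92215834, plus strand: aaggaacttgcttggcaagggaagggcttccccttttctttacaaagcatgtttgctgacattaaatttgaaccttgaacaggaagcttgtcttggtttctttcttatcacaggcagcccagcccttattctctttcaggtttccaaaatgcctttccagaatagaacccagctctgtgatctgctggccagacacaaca
Lce1m, chr3:93019062-93019261, minus strand: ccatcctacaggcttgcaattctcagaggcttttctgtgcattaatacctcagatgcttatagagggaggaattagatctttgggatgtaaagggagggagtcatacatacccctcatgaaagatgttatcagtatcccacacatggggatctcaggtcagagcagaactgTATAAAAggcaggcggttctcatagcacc
Lce3c, chr3:92944286-92944485, plus strand: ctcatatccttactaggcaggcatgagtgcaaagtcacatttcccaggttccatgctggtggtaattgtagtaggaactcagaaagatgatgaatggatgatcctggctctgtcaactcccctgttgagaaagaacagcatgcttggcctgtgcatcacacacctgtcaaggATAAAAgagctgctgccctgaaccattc
Lce3a, chr3:92926231-92926430, minus strand: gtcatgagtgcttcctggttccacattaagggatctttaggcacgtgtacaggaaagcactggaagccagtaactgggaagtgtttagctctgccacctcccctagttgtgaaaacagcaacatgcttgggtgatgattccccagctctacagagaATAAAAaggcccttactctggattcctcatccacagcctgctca

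Sprr1a held TGANTCA 146 and 116 bases before its start, Sprr2h held it 198 bases and Lor 48 bases before theirs. The letters were in neither strand of the Lce1m, Lce3c, Lce3a and Sprr2a1 sequences shown. RefSeq gave a promoter for 34 of the 37 genes, not for Lce1f, Sprr2g and Sprr2j-ps. Within 250 bases before to 50 after the start, TGANTCA was in 10 of these 34 promoters, against 7.81% of all 32851 promoters of the same length.

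The 10 were Lor, Ivl, Sprr1a, Sprr1b and 6 of 9 Sprr2 promoters (Sprr2b, Sprr2d, Sprr2e, Sprr2f, Sprr2h and Sprr2i). None of the 13 Lce1 and none of the 6 Lce3 promoters held it in this window. TATAAA was in 14 of 34 promoters, against 13.6% of all promoters, and in 2 of 13 Lce1 and 1 of 6 Lce3 promoters. The matches of Lce3e and Lce6a lay on the opposite strand, 243 and 218 bases before the start, away from the place of a TATA box. The others began 27 to 43 bases before the start, and none of these was in an Lce3 promoter. ATAAAA, a search added after the sequences were seen, was in 12 of 13 Lce1 and all 6 Lce3 promoters, in each of these within 50 bases of the start, against 18.5% of all promoters anywhere in the 300 bases. ACCGGT, the letters of grainyhead-like factors, was in 0 of 34 (2.33% of all), and CCACCC was in 5 of 34 (31.5% of all). A match is a description of letters, and shows neither binding nor use of the site.

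In LDB2-/- skin the envelope genes divided by subgroup. Lor, Lce6a and all 14 Lce1 genes were lower. Both Sprr1 genes, the 5 tested Lce3 genes, 4 of the 8 tested Sprr2 genes, Sprr4 and Ivl were higher. Levels are given as TMM-scaled CPM (the gene's counts in every 1000000 of the library), and fold changes are of LDB2-/- against wild type from edgeR's quasi-likelihood test, called at a Benjamini-Hochberg adjusted p under 0.05 over all 12400 genes tested.

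Of the 37 genes, 33 passed the filter on low values, and 29 of these were called, where 57.2% of all genes tested were called. Higher calls numbered 13 (28.4% of all genes tested) and lower calls 16 (28.8% of all genes tested). The median log2 fold change was −0.31 over the 33 genes and −0.01 over all genes tested. The filter was passed only through the LDB2-/- libraries by 6 genes (Sprr2e, Sprr2f, Lce3a, Lce3d, Lce3e and Lce3f), which therefore had to differ, and Lce3b, Sprr2b, Sprr2i and Sprr2j-ps did not pass it. Without any filter 11 members were called higher (19.7% of all genes) and 16 lower (21.1% of all genes). With counts scaled by the library total alone, the median of all genes moved to −0.33, the split of all calls from 3521 higher and 3576 lower to 2248 and 5096, and that of the members to 11 and 17.

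Over all 37 genes, CPM of the genotypes did not overlap for 15 that were higher in both LDB2-/- libraries and for 18 that were lower. Of these, Lce3b and Sprr2i (higher) and Sprr2b (lower) were not tested. Among all genes tested, 40.8% were without overlap in the higher direction and 41.7% in the lower. In the authors' deposited table, 12 members were called higher and 16 lower as here (called there among all genes: 23.5% higher and 24.0% lower). That table also called Lce3b higher, which was not tested here, and did not call Sprr2e.

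**Figure D1:**
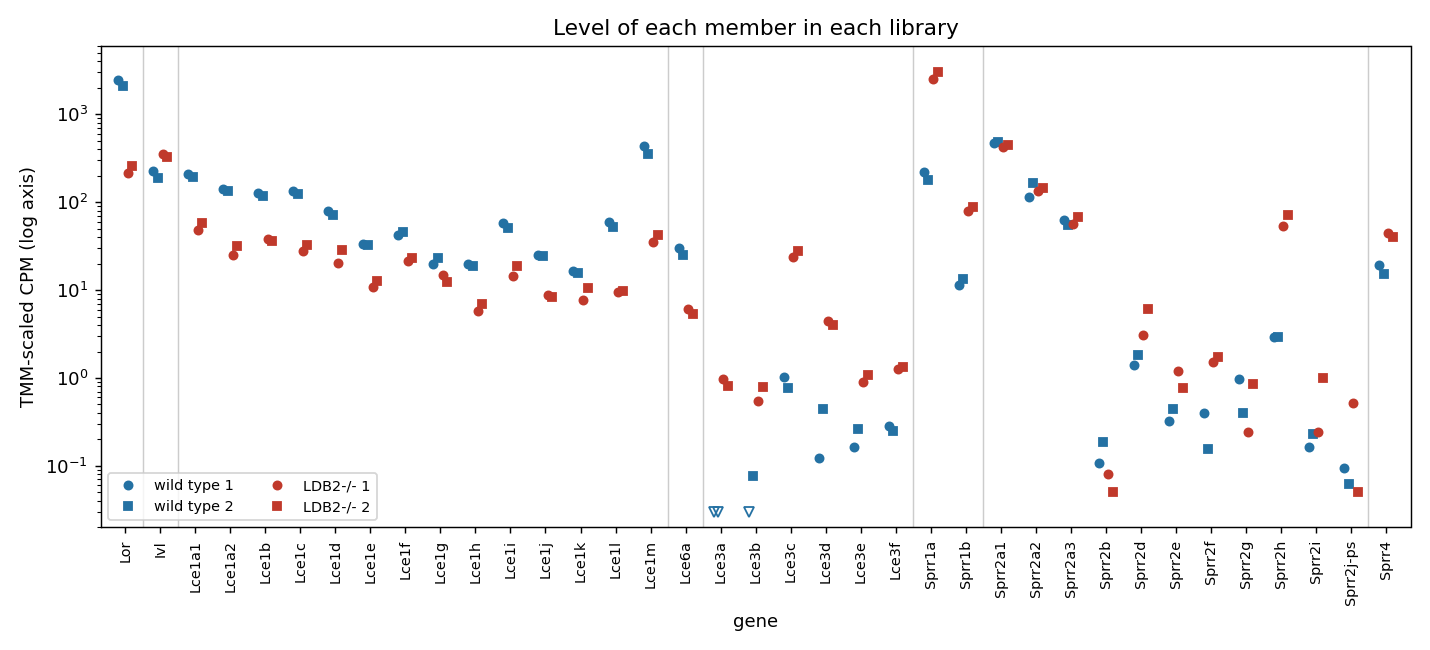
TMM-scaled CPM (vertical log axis) of each of the 37 genes in each of the 4 libraries, with grey lines between subgroups. Open triangles at the lower edge stand for 0 counts (Lce3a in both wild type libraries and Lce3b in wild type 1). Every Lce1 gene lies lower, and every Lce3 and Sprr1 gene higher, in both LDB2-/- libraries.

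Loricrin, the main protein of the mature envelope, had 2449.7 and 2079 CPM in wild type and 214 and 256 CPM in LDB2-/-. The wild type values were thus far above both LDB2-/- values, a 9.64-fold difference in means. On the log2 scale Lor fell by 3.27 (SE 0.19, adjusted p = 0.000164, edgeR). By FPKM, which counts fragments per kilobase of transcript, Lor ranked 50 and 51 among all genes in wild type against 684 and 622 in LDB2-/-.

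Involucrin, the early scaffold, went the other way. Ivl had 227 and 186 CPM in wild type and 353 and 324 CPM in LDB2-/-, without overlap. The rise was 1.64-fold (log2 fold change 0.71, SE 0.14, adjusted p = 0.00766, edgeR), and the call was lost when counts were scaled by the library total alone (log2 0.40, adjusted p = 0.0539). Per length, Lor exceeded Ivl 11.7-fold and 12.1-fold in the wild type libraries, whereas the ratio of Lor to Ivl was 0.654 and 0.855 in the LDB2-/- libraries.

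All 14 Lce1 genes, which encode small cysteine-rich proteins of the late envelope, were called lower in LDB2-/- (28.8% of all genes tested). Their summed level was 1409 and 1260 CPM in wild type and 288 and 333 CPM in LDB2-/-, a 4.30-fold difference in means. The median log2 fold change of the 14 genes was −1.67. In bulk tissue, fewer cells that make these transcripts and less RNA per cell cannot be told apart.

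The size of the Lce1 difference varied between genes. Lce1m, the most abundant of them per length in wild type, had 438 and 357 CPM in wild type and 35.7 and 42.5 CPM in LDB2-/-. It fell 10.2-fold (log2 −3.35, SE 0.17, adjusted p = 0.000125, edgeR), further than any other Lce1 gene. Lce1l followed at −2.54, Lce1a2 at −2.27 and Lce1c at −2.09 on the log2 scale, so that 4 of the 14 lay below −2 and 11 below −1.

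Lce1a1, the next most abundant per length in wild type, had 212 and 192 CPM in wild type against 47.7 and 58.3 in LDB2-/-, a log2 fold change of −1.93. Between −1.73 and −1.49 lay Lce1b, Lce1i, Lce1d, Lce1h, Lce1j and Lce1e, in that order. Lce1f followed at −0.98.

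The smallest differences were those of Lce1k and Lce1g. Lce1k had 16.5 and 15.7 CPM in wild type against 7.74 and 10.5 in LDB2-/- (log2 −0.82, SE 0.22, adjusted p = 0.0210, edgeR). Lce1g had 19.999 and 23.0 CPM in wild type against 14.8 and 12.4 in LDB2-/- (log2 −0.66, SE 0.18, adjusted p = 0.0241, edgeR). Neither gene overlapped between genotypes. Each lost its call in 2 of the 4 fits that left out a library: Lce1k without wild type 1 (adjusted p = 0.0513) or LDB2-/- 1 (adjusted p = 0.0646), and Lce1g without wild type 2 (adjusted p = 0.122) or LDB2-/- 2 (adjusted p = 0.0869).

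The make-up of the Lce1 group shifted with these differences. Lce1m held 26.5% and 24.1% of the summed Lce1 FPKM in wild type against 10.2% and 10.5% in LDB2-/-. The share of Lce1a1 was 15.9% and 16.1% in wild type against 16.9% and 17.9% in LDB2-/-. Lce6a, a member of the family outside the numbered Lce1 and Lce3 series, had 30.5 and 25.4 CPM in wild type against 6.16 and 5.40 in LDB2-/-. Its fall of 4.83-fold (log2 −2.27, SE 0.19, adjusted p = 0.000452, edgeR) lay within the range of the Lce1 genes.

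The Lce3 genes moved opposite to the Lce1 genes. Their summed level was 1.59 and 1.81 CPM in wild type and 32.2 and 35.8 CPM in LDB2-/-, with values without overlap for all 6 genes. Of all genes tested, 40.8% were higher without overlap, and Lce3b was not tested. The median log2 fold change of the 5 tested genes was 3.90, and it is the same with Lce3a set at its lower bound. As 4 of these 5 passed the filter only through the LDB2-/- libraries, their count is a description.

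Lce3c carried most of the rise. It had 1.02 and 0.774 CPM (76 and 50 counts) in wild type and 24.1 and 27.8 CPM (1196 and 1652 counts) in LDB2-/-. It was 28.7-fold higher (log2 4.84, SE 0.25, adjusted p = 0.000136, edgeR). Among all genes tested, 3.31% were called and at least 10-fold higher.

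The other Lce3 genes rested on few reads. Lce3a had 0 counts in both wild type libraries and 48 in each LDB2-/- library, at least 40.7-fold higher when wild type is set at 3 counts over the genotype. Lce3d had 9 and 29 counts in wild type against 219 and 241 in LDB2-/- (log2 3.90, SE 0.60, adjusted p = 0.00316, edgeR).

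Lce3f had 21 and 16 counts in wild type against 63 and 79 in LDB2-/- (log2 2.28, adjusted p = 0.00525, edgeR). Lce3e had 12 and 17 counts in wild type against 45 and 65 in LDB2-/- (log2 2.24, adjusted p = 0.00990, edgeR), and it lost its call with no expression filter (adjusted p = 0.0657) or without wild type 1 (adjusted p = 0.0791). Lce3b had 0 and 5 counts in wild type against 27 and 47 in LDB2-/-, and was not called when all genes were tested (log2 4.05, adjusted p = 0.0968). Of the 100-base windows of their transcripts, 24.1% in Lce3c, 28.3% in Lce3d, 36.4% in Lce3e and 43.0% in Lce3f also occur in the transcript of another gene, so reads may have been divided among these copies.

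Even after the rise, Lce3 transcripts were few. Summed per length, there were 0.145 and 0.181 FPKM of Lce3 for each 100 FPKM of Lce1 in wild type, and 14.3 and 13.8 in LDB2-/-.

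**Figure D2:**
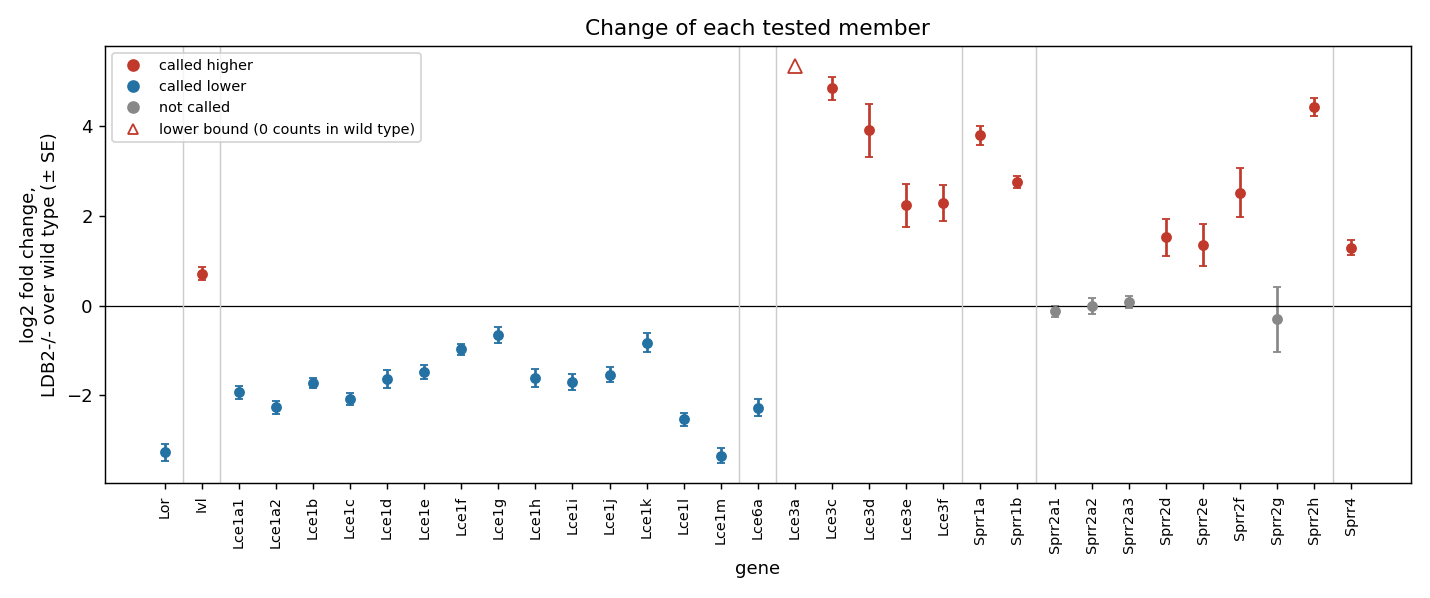
Log2 fold change of LDB2-/- over wild type (± SE, edgeR) for the 33 tested genes, in red where called higher, blue where called lower and grey where not called. The open triangle is the lower bound of Lce3a, which had 0 counts in wild type. All 14 Lce1 genes lie between −3.35 and −0.66, and Sprr2a1, Sprr2a2 and Sprr2a3 lie close to 0.

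Sprr1a, a crosslinked bridge protein of the envelope, became the most abundant gene of the family. It had 219 and 177 CPM in wild type and 2509 and 2992 CPM in LDB2-/-, 13.9-fold higher (log2 3.80, SE 0.21, adjusted p = 0.000149, edgeR). By FPKM it ranked 223 and 257 among all genes in wild type and 17 in both LDB2-/- libraries. Its close relative Sprr1b had 11.5 and 13.3 CPM in wild type and 80.1 and 88.3 CPM in LDB2-/-. That was 6.78-fold higher (log2 2.76, SE 0.14, adjusted p = 0.000125, edgeR). Neither transcript shares a 100-base window with another gene.

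Sprr4, a small proline-rich gene next to Sprr1a, rose less. It had 19.5 and 15.2 CPM in wild type and 44.7 and 40.6 CPM in LDB2-/-, without overlap. The difference was 2.45-fold (log2 1.29, SE 0.17, adjusted p = 0.00181, edgeR).

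The Sprr2 genes, which encode shorter proline-rich bridges, did not move together. The 3 related genes Sprr2a1, Sprr2a2 and Sprr2a3 held 99.0% and 99.1% of Sprr2 counts in wild type against 91.1% and 89.0% in LDB2-/-. Their summed level was 648 and 710 CPM in wild type and 619 and 661 CPM in LDB2-/-, so the genotypes overlapped. None of the 3 was called: the log2 fold changes were −0.13 (SE 0.12, adjusted p = 0.387) for Sprr2a1, −0.01 (SE 0.18, adjusted p = 0.958) for Sprr2a2 and 0.08 (SE 0.14, adjusted p = 0.658) for Sprr2a3.

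Single values of these 3 genes are uncertain, because 92.5% of the 100-base windows of Sprr2a1, 92.8% of Sprr2a2 and 36.2% of Sprr2a3 occur in another gene. Sprr2a1 had 471 and 489 CPM in wild type against 428 and 449 in LDB2-/-, lower without overlap. It was called lower with the library total as scale (adjusted p = 0.0174) and by limma on log2(FPKM + 1) (adjusted p = 0.00641). The 11 Sprr2 genes summed to 655 and 717 CPM in wild type against 680 and 743 in LDB2-/-. The log2 ratio of these sums was 0.05, and −0.27 with the library total as scale.

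Sprr2h was the Sprr2 gene with the largest change. It had 2.91 CPM in both wild type libraries and 53.8 and 71.3 CPM in LDB2-/-. The rise was 21.5-fold (log2 4.43, SE 0.20, adjusted p = 9.68e-05, edgeR), and its transcript shares no 100-base window with another gene.

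The remaining Sprr2 genes were low. Sprr2f had 0.405 and 0.155 CPM in wild type against 1.51 and 1.75 in LDB2-/- (log2 2.52, SE 0.54, adjusted p = 0.0101, edgeR). Sprr2d had 1.40 and 1.81 CPM in wild type against 3.12 and 6.07 in LDB2-/- (log2 1.52, SE 0.41, adjusted p = 0.0228, edgeR). The call of Sprr2d was lost without wild type 1 (adjusted p = 0.0676) or without LDB2-/- 2 (adjusted p = 0.0675), and with the crossed replicate block (adjusted p = 0.0650).

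Sprr2e had 0.324 and 0.449 CPM in wild type against 1.21 and 0.773 in LDB2-/- (log2 1.35, SE 0.46, adjusted p = 0.0485, edgeR), and it lost its call in 12 of the 17 alternatives that tested it. Among those 12 were the fits without wild type 1 (adjusted p = 0.251), without wild type 2 (adjusted p = 0.142) and without LDB2-/- 1 (adjusted p = 0.131). Sprr2g was not called (log2 −0.31, SE 0.73, adjusted p = 0.736). The counts were 8 and 12 in wild type against 4 and 3 in LDB2-/- for Sprr2b, and 12 and 15 against 12 and 59 for Sprr2i. For Sprr2j-ps they were 7 and 4 against 26 and 3.

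The family's parts changed places in its total. Summed CPM of the 37 genes was 5022 and 4474 in wild type against 4207 and 4817 in LDB2-/-, with overlap, and the ratio of means was 0.950. As a share of all counts in a library, without TMM scaling, the family was lower in LDB2-/- without overlap, at 0.553% and 0.503% in wild type against 0.386% and 0.419%. Summed FPKM, a level per length, was 4387 and 3939 in wild type against 4103 and 4497 in LDB2-/-.

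Of this FPKM sum, Lor held 34.1% and 32.9% and the Lce1 genes 46.6% and 47.6% in wild type. In LDB2-/- the share of Lor was 2.64% and 2.73%, and that of the Lce1 genes 8.77% and 8.72%. The Sprr1 share was 7.19% and 6.75% in wild type against 72.1% and 73.9% in LDB2-/-, nearly all of it Sprr1a. The Sprr2 share, at 6.12% and 7.27% in wild type against 6.76% and 6.80% in LDB2-/-, overlapped.

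For each FPKM of Lor there were 0.201 and 0.192 FPKM of Sprr1a in wild type against 26.4 and 26.3 in LDB2-/-. The order of single genes changed with it. Lor, Lce1m, Lce1a1 and Sprr1a led, in this order, in both wild type libraries. In both LDB2-/- libraries Sprr1a led, followed by Sprr4 and Ivl, with Sprr2a1 and Lor next at 108 to 123 FPKM. These orders and the Sprr2 share above are per length and depend on the annotated transcript lengths. In each library, counts per FPKM of Sprr2a1 and of Sprr2a2 were 4.16 times those of Sprr2a3. The deposited FPKM thus took unlike lengths for these related genes. By CPM, Sprr4, with a transcript of 231 bases, had 44.7 and 40.6 in LDB2-/-. That was below Sprr2a1 (428 and 449), Ivl (353 and 324) and Lor (214 and 256). In wild type, Sprr2a1 had 471 and 489 CPM, above Lce1m at 438 and 357.

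**Figure D3:**
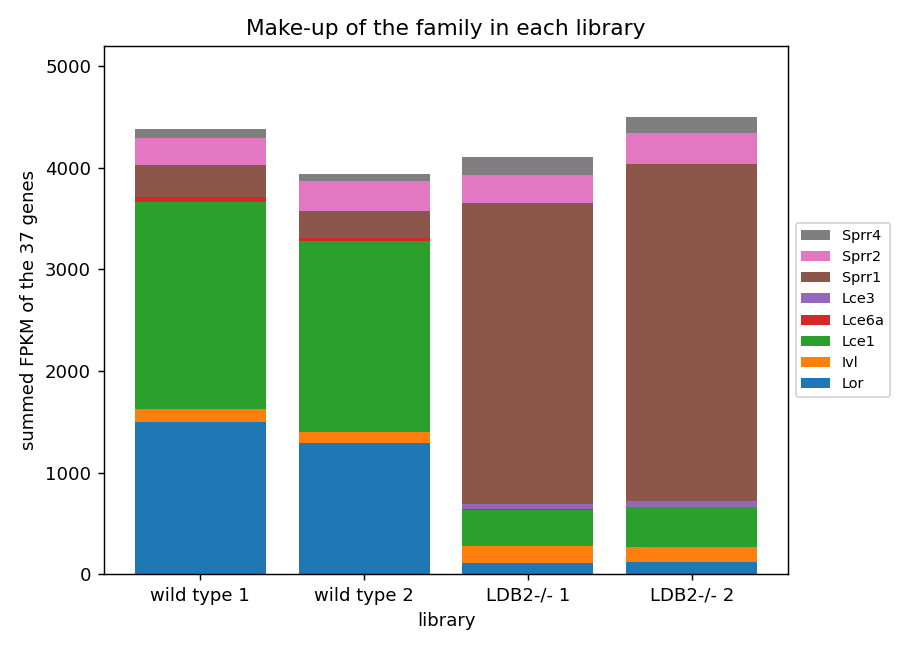
Summed FPKM of the 37 genes in each library, stacked by subgroup. The full bars reach 4387 and 3939 in wild type against 4103 and 4497 in LDB2-/-. Lor and Lce1 fill most of the wild type bars, and Sprr1 fills most of the LDB2-/- bars.

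Along chromosome 3 some blocks of neighbouring genes were called in 1 direction, and the Sprr2 block was mixed. Among all genes tested, 28.4% were called higher and 28.8% lower. The direction of Sprr2e and Sprr2f was set by the filter, which they passed only through LDB2-/-. From Lor (92080271 to 92083142, mm10) the next members were the 11 Sprr2 genes in 204 kb (92215835 to 92419396), of which 4 were called higher, 4 were not called and 3 were not tested. The block from Sprr1b to Ivl (92436808 to 92573790) held 4 genes, all higher. The block from Lce6a to Lce1l (92604821 to 92851286) held 14 genes over 246 kb, all lower.

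Beyond it, the 6 Lce3 genes lay within 68.1 kb (92925287 to 92993426), with 5 higher and Lce3b untested. Lce1m (93017807 to 93019061) lay past the Lce3 genes, away from the other Lce1 genes, and was lower like them. The Lce3 genes were thus flanked on both sides by Lce1 genes that changed in the opposite direction. Of the Lce3 genes, Lce3c alone passed the filter in both genotypes. Lce3a, Lce3d, Lce3e and Lce3f passed it only through LDB2-/-, so the filter set their direction and their calls are a description.

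**Figure D4:**
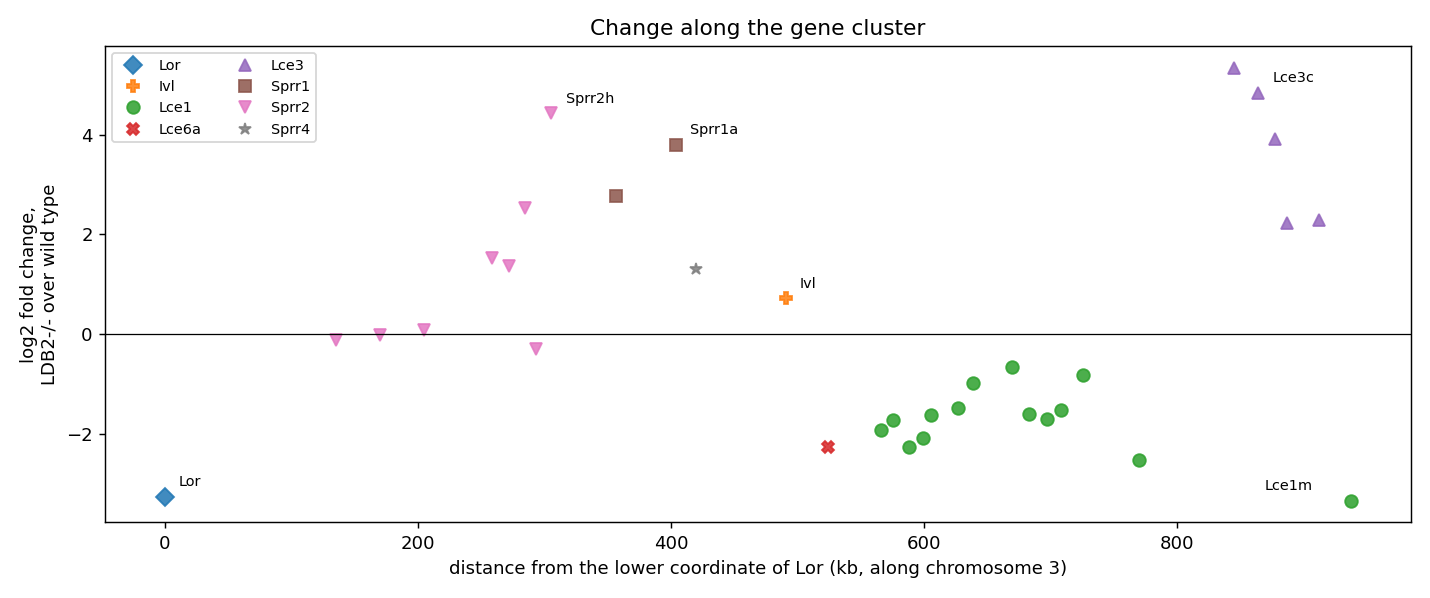
Log2 fold change of the 33 tested genes (LDB2-/- over wild type) against distance along chromosome 3 from Lor, in kb, with a symbol for each subgroup. Lce3a is drawn at its lower bound. The Lce3 genes lie above 0 between the other Lce1 genes and Lce1m, which all lie below 0.

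Calls were set beside the promoter letters as a description. Among all genes tested, 28.4% were called higher and 28.8% lower. Of the 10 promoters with TGANTCA, 7 belonged to genes called higher, 1 to a gene called lower (Lor) and 2 to untested genes. Of these 10, 6 are promoters of related Sprr2 neighbours that hold the letters 193 to 198 bases before the start, so they are not independent. Of the 24 without it, 6 belonged to genes called higher, all 5 tested Lce3 genes among them, and 14 to genes called lower. Another 3 belonged to genes not called (Sprr2a1, Sprr2a2 and Sprr2a3) and 1 to an untested gene. These 3 promoters also lacked TATAAA, which lay 29 bases before the start in the other 6 Sprr2 promoters. The longest GENCODE transcripts of Sprr2a1, Sprr2a2 and Sprr2a3 are 2867 to 3003 bases long, against 609 to 784 for those taken for the other Sprr2 genes. The deposited FPKM took a shorter length for Sprr2a3, since counts per FPKM of Sprr2a1 and Sprr2a2 were 4.16 times its own. Whether the RefSeq starts of these 3 genes are those used in skin was not tested. Without the 6 genes that passed the filter only through LDB2-/-, the promoters of genes called higher were 5 with TGANTCA and 2 without. The Lce1 and Lce3 promoters, which changed in opposite directions, both lacked TGANTCA and nearly all held ATAAAA close to the start.

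The other genes of the envelope programme were counted from lists. Beside the counts of these lists and of the marker lists below stand the shares of all genes tested, 28.4% called higher and 28.8% called lower. Of the genes beside the family on chromosome 3 together with the S100-fused proteins, 10 were tested, 3 higher and 6 lower, with a median log2 fold change of −1.38. Flg2 and Hrnr, filaggrin relatives of the granular layer, had log2 fold changes of −5.24 and −5.21. The neighbour 2310050C09Rik fell from 225 and 175 CPM to 26.1 and 23.9 CPM. Tchh, the trichohyalin of the inner root sheath, and Tchhl1 rose by 7.84 and 7.13.

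Of 8 crosslinking enzymes, 3 were higher and 4 lower (median 0.07). Tgm1, the membrane-bound transglutaminase of the epidermis, had 73.7 and 58.1 CPM in wild type against 364 and 396 in LDB2-/-, higher by 2.53 on the log2 scale (SE 0.16, edgeR, adjusted p = 0.000189). Tgm3, an enzyme of the upper epidermis and the hair follicle, rose by 4.59 and Tgm6 by 7.01. The lipoxygenases Alox12b and Aloxe3, which prepare lipids for attachment to the envelope, had log2 fold changes of −3.23 and −2.29.

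Of 20 tested other envelope and granular genes, 2 were higher and 11 lower (median −0.91). Cnfn, the envelope protein cornifelin, rose by 2.79. Log2 fold changes were −3.52 for Tgm7, −3.26 for Calm5, −3.09 for Krtdap and −3.03 for Krt10, the keratin of suprabasal cells. Against Krt10 the members differed. Lor had 164 and 167 counts per 1000 counts of Krt10 in wild type against 120.1 and 162 in LDB2-/-. The Lce1 genes had 94.5 and 101 in wild type against 162 and 211 in LDB2-/-, whereas Sprr1a had 14.7 and 14.2 in wild type against 1410.1 and 1897 in LDB2-/-. The Lce1 direction depended on the marker chosen. Against the 6 suprabasal markers in turn, the Lce1 sum was higher in both LDB2-/- libraries for 2 (Krt10 and Krtdap), lower for 3 (Dsg1a, Dsc1 and Sbsn) and overlapping for Krt1. Per 1000 counts of Sbsn, for example, it was 588 and 662 in wild type against 341 and 367 in LDB2-/-. Lor was lower for 5 of the 6 markers and overlapping for Krtdap, and Sprr1a was higher for all 6.

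Of 31 transcription factors of barrier genes, 9 were higher and 16 lower (median −0.52), against 28.4% and 28.8% of all genes tested. The higher count is thus near the share of all genes. The largest log2 fold changes were −4.07 for Satb1, a chromatin organiser of this gene cluster, −3.84 for Rora, −2.90 for Ahr, −2.86 for Fos and −1.79 for Ehf. Among the other AP-1 subunits on the list, chosen for mention after their values were seen, Fosl1 fell from 17.9 and 14.3 CPM to 6.85 and 6.24 CPM, and Jun and Fosl2 had log2 fold changes of −0.88 and −0.52. Junb was not called (log2 0.15, adjusted p = 0.360).

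Of 19 tested genes of inflamed or wounded keratinocytes, 7 were higher and 8 lower (median −0.17), and the list includes Sprr2d. The cytokine genes Il1f6, Il1f9 and Il1f8 had log2 fold changes of −4.12, −3.53 and −3.31, and the chemokine gene Cxcl1 one of −4.59. Ccl20, a chemokine gene, had 279 and 82 counts in wild type and 0 in both LDB2-/- libraries. Among the genes chosen for mention after their values were seen, S100a8 rose by 2.35, Krt6a by 1.33 and Krt17 by 1.28, and Krt16 was not called (log2 −0.17, adjusted p = 0.342). Krt6a, Krt16 and Krt17 are also on the companion and outer sheath list below, and S100a8 on the leukocyte list.

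**Figure D5:**
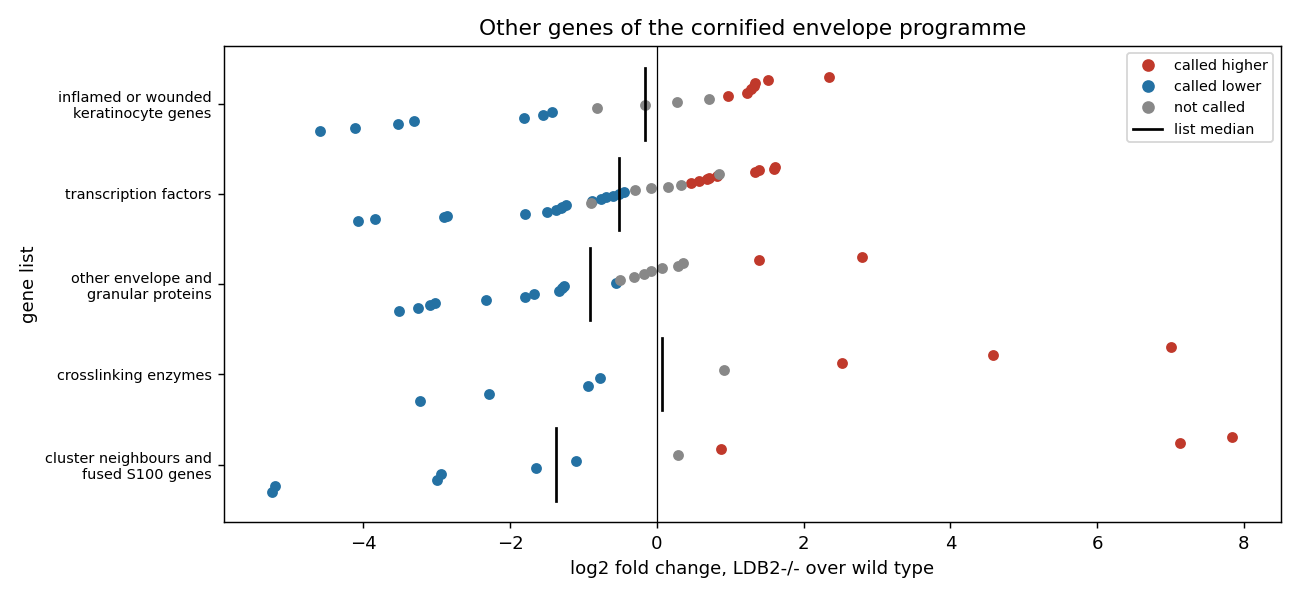
Log2 fold change (LDB2-/- over wild type, edgeR) of each tested gene in 5 lists, with the list median as a vertical bar. Ccl20, at 0 counts in both LDB2-/- libraries, is left out of the points. Each list holds genes called higher and genes called lower.

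Markers of other skin compartments moved with genotype, and their part in the results above was not tested. All 6 basal and 5 of 6 suprabasal keratinocyte markers were lower in LDB2-/-, and none was at 0 in any library. Their sums were 25831 and 23348 (basal) and 24550.3 and 20280.2 CPM (suprabasal) in wild type, and 10750.0 and 10949 (basal) and 4348 and 3924 CPM (suprabasal) in LDB2-/-. All 9 inner root sheath markers were higher, with sums of 166 and 638 CPM in wild type and 111932 and 121523 CPM in LDB2-/-. All 10 hair shaft markers were higher too, from 28.7 and 275 CPM to 19890.3 and 22518 CPM, and no marker of either hair list was at 0 in any library.

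The companion and outer sheath list summed to 4806 and 4557 CPM in wild type and 6622 and 6763 CPM in LDB2-/-, with 3 of 6 higher and 1 lower. All 8 sebaceous gland markers were lower, from sums of 4822 and 6569 CPM to 1255 and 1129 CPM. Fibroblast sums were 79.4 and 44.8 CPM in wild type and 182 and 238 CPM in LDB2-/- (4 of 4 tested higher). Endothelial sums were 4.29 and 7.06 CPM against 54.2 and 59.6 CPM (5 of 5 tested higher, with Cldn5 and Kdr at 0 in a library). Leukocyte sums were 157 and 175 CPM against 112 and 115 CPM (3 higher and 4 lower of 8 tested, with Ly6g at 0 in a library).

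The wild type libraries also differed from each other in hair markers. Wild type 2 had 3.84 times the inner root sheath sum and 9.60 times the hair shaft sum of wild type 1. Of the 35 members with counts in both wild type libraries, 11 were higher in wild type 2. The median ratio over the 35 was 0.920, with a range from 0.382 for Sprr2f (30 and 10 counts) to 3.70 for Lce3d (9 and 29 counts). Among members the results turn on, the ratio was 0.809 for Sprr1a, 1.16 for Sprr1b, 0.999 for Sprr2h and 0.755 for Lce3c. It was 0.849 for Lor and 0.816 for Lce1m.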

How the data were processed

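RNA-seq libraries of back skin from 2 wild type and 2 LDB2-/- samples were compared. Per the submitters' processing notes, bcl2fastq 1.8.4, HISAT2 2.1.0 and StringTie 1.3.4d were used with mm10. Their settings, the strandedness and the read length are not given in the sources used here, so overlapping and antisense genes cannot be separated. The authors deposited whole-number read counts per gene, per the file headers. Also deposited by the authors were FPKM, scaled to library size and transcript length, and log2 values normalized between libraries by a method the headers do not name. The deposited comparison holds a signed fold change, treated as a score, and a Benjamini-Hochberg adjusted p-value, both used only where the authors' deposited table is named.

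Counts of the 12400 genes that reached an FPKM of 1 in 2 or more libraries were tested with edgeR's quasi-likelihood test, two-sided, with Benjamini-Hochberg adjustment over all of them and a threshold of 0.05. The wild type libraries had TMM factors of 1.105 and 1.128, the LDB2-/- libraries 0.920 and 0.872. Group sums were not tested, since an exact permutation of 2 against 2 libraries cannot give a p below 0.333. The SE is that implied by the quasi-likelihood F statistic. In simulated counts the test made more false calls than its threshold is meant to allow. A count of 0 was set to a floor of 3 counts over the genotype, which covers counting error only. Shared sequence was measured as exact 100-base windows among GENCODE M21 transcripts, and promoters came from RefSeq (GRCm38.p6).

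The members and gene lists were chosen with earlier results of these data known. Named were all members, from each list up to 5 genes of largest absolute change, and the others said to be chosen later. Promoters shown are those of the most abundant Lce1, Lce3, Sprr1 and Sprr2 genes and of the Sprr2 and Lce3 genes of largest change, and Lor, added later. Alternatives were other scalings, filters, tests (DESeq2, limma on log2(FPKM + 1) and log2(FPKM + 0.1)), a robust fit, the replicate number as a block and each library left out. Added after seeing the data were limma on the authors' log2 values, a crossed block, TMM without the hair lists, ratios to each suprabasal marker, the promoter counts without genes that passed the filter through LDB2-/- alone and the ATAAAA search. Python 3.11.15, pandas 2.3.3, matplotlib 3.10.9, R 4.3.3, DESeq2 1.42.0, edgeR 4.0.16 and limma 3.58.1 were used.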

Additional observations from a re-analysis of the deposited data

How the results depend on the processing

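Of the 29 called genes, 23 kept the call in every one of the 19 alternatives that tested them, 6 lost it in at least 1 (Ivl, Sprr2d, Sprr2e, Lce1g, Lce1k and Lce3e) and none changed direction. With a filter of FPKM 5 or more, 7 members were called higher, since fewer were tested. With each library left out in turn, members called higher numbered 10 to 12 and members called lower 15, and genes called 5669 to 6702. The replicate numbers in the labels are not said to mark shared animals or batches, and same-numbered libraries deviated with r = −0.16 over 12400 genes. With the replicate block 6092 genes, 12 members higher and 16 lower were called, and with the crossed block 7269, 11 and 16. Log2 ratios of subgroup sums were, from summed FPKM and from the library total as scale, −3.59 and −3.59 for Lor (TMM −3.27), 0.40 and 0.40 for Ivl (0.71), −2.38 and −2.42 for Lce1 (−2.10), 4.05 and 4.002 for Lce3 (4.32), −2.59 and −2.58 for Lce6a (−2.27), 3.43 and 3.43 for Sprr1 (3.75), and 0.98 and 0.98 for Sprr4 (1.29). That of Sprr2 reversed with the library total, −0.27 against 0.05. It did not with summed FPKM, at 268 and 286 in wild type against 277 and 306 in LDB2-/-. Apart from Sprr2 by summed FPKM, these differences follow the scale, which moved the median of all genes by a like amount. Genes not called changed sign in some fits: Sprr2a2 to 0.00998 with the replicate block and 0.0101 with the crossed block, 0.27 without wild type 2 and 0.04 without LDB2-/- 1, Sprr2a3 to −0.24 with the library total, −0.24 and −0.25 by limma on log2(FPKM + 1) and log2(FPKM + 0.1), and between −0.075 and 0.22 with each library left out, and Sprr2g between −1.51 and 0.46 with each library left out. Groups of 2 libraries allow no check for a library apart from its group. Depth limits the low Lce3 and Sprr2 genes, many with under 100 counts in a library.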

Other observations

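Cebpb, a transcription factor gene on the list of barrier regulators, had 266 and 258 CPM in wild type, 276 in LDB2-/- 1 and 4.32 in LDB2-/- 2, and was not called (log2 −0.90, SE 1.42, adjusted p = 0.609, edgeR). Of the genes beside the family on chromosome 3, Crct1 was higher in LDB2-/- (log2 fold change 0.87, SE 0.14, adjusted p = 0.00374, edgeR) and Kprp, a keratinocyte proline-rich gene, was lower (log2 fold change −2.94, SE 0.11, adjusted p = 7.68e-05, edgeR). On the same list as Cebpb, Ovol1 and Prdm1, regulators of terminal differentiation, rose by 1.59 and 1.61 (edgeR, adjusted p of 0.00058 and 0.000423). Other genes of that list were lower, among them Cebpa, Klf4 and Grhl3 with log2 fold changes of −1.37, −1.24 and −0.76. Of its 31 genes, 9 were higher and 16 lower. All genes named under this heading were chosen after their values were seen.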
